A study of Mus musculus with 2 samples.

Results

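The nuclear genes of oxidative phosphorylation were followed in ChIP-seq libraries of E14 mouse ES cells. Members were the protein-coding genes of the mouse annotation GENCODE vM1 (build mm9) whose symbol starts with Nduf, Uqcr, Atp5, Cox4, Cox5, Cox6, Cox7 or Cox8, or is *Sdha*, *Sdhb*, *Sdhc*, *Sdhd*, *Cyc1* or *Cycs*. This gave 94 genes of 22380. They carry 93 symbols, because *Ndufb8* has a second gene record. Among them, 5 are members by name only: *Atp5s*, *Atp5sl*, *Cox4nb*, *Cox7a2l* and *Atp5l-ps1* are not counted here as subunits of the complexes.

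The line E14 consists of mouse embryonic stem cells, here grown with LIF and labelled with the background strain C57BL/6. Its sonicated chromatin was incubated with an antibody to ZNF322 for the Zfp322a library and with an anti-Rabbit IgG antibody for the control library. Zfp322a is a zinc finger protein, and the study asked where it binds in these cells. One library was sequenced for each antibody, so there is no replicate and every p-value given here compares these libraries and not conditions. The labels name no other treatment. The libraries hold precipitated DNA, so they show how much of a promoter came down with an antibody and nothing of the RNA of a gene.

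Oxidative phosphorylation is the chain of protein complexes in the inner mitochondrial membrane that passes electrons from NADH and succinate to oxygen and uses the resulting proton gradient to make ATP. Complex I oxidises NADH, complex II (succinate dehydrogenase) oxidises succinate, complex III passes the electrons to cytochrome c, complex IV reduces oxygen, and the ATP synthase makes ATP. A few subunits are encoded by the mitochondrial genome, and the rest, the genes described here, lie on nuclear chromosomes and must be transcribed in step with them. Their promoters are known for sites of the transcription factors NRF1, GABP (an ETS factor) and YY1.

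Reads that passed a minimal mapping quality of 25 numbered 4151151 in the Zfp322a library and 3877802 in the IgG library. A read was assigned to a promoter when its 5′ end lay from -1000 to +1000 bp of the transcription start site (TSS). The fold per read is the ratio of Zfp322a to IgG reads in this window divided by the ratio of the library totals. Its 95% interval, from the exact conditional binomial distribution, covers counting error only. A promoter was said to hold a putative site when, at 1 position of the window, at least 9 Zfp322a fragments of 300 bp overlapped and these were at least 3 times the IgG fragments there. The height and fold limits are those of the study's methods, but its strand test was not applied, and heights were compared at 1 position rather than between the peaks of each library. The height is the number of overlapping fragments.

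Among the members, the lowest adjusted p-values were those of *Ndufb2* and *Uqcrc2*, and the highest pile-up was at *Atp5g2*. For *Ndufb2* and *Atp5g2* the 200 bases before the TSS are shown, because these bases overlap no annotated exon. They run 5′ to 3′ in the direction of the gene, from mm9, with capitals where the letters match a searched motif.
Ndufb2, chr6:39542373-39542572, plus strand: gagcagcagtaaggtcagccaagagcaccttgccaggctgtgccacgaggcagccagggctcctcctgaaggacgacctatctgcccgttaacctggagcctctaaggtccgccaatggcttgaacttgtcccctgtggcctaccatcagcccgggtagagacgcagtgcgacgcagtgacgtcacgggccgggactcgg
Atp5g2, chr15:102501479-102501678, minus strand: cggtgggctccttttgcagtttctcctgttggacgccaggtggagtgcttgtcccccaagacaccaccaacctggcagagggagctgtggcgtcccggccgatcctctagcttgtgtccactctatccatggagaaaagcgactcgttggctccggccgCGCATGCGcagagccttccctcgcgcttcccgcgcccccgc
The stretch of *Ndufb2* holds 12 CpG and no match, and that of *Atp5g2* holds 16 CpG and the NRF1 core. The highest pile-up of *Atp5g2* lies 85 bp after its TSS, outside the stretch shown.

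Motifs were searched on both strands from 250 bp before to 50 bp after each TSS by their core letters. The NRF1 core CGCATGCG was present in 9 members (9.57%) and in 2.29% of all protein-coding genes. The YY1 core AAGATGGCG was present in 6 members (6.38%), against 1.90% of all genes, and the ETS core CCGGAAGT in 6 (6.38%), against 4.91%. The GC box GGGCGGGG, which Sp and KLF factors bind, was in 17 members (18.1%, against 22.9%), and the letters TATAAA were in 8 (8.51%, against 13.4%). No motif searched here contains another. A match is a stretch of letters and no measured site. Stretches around such cores are shown for promoters described below, in the direction of the gene, with the core in capitals.
Cycs, NRF1 core, chr6:50516611-50516640, minus strand: ccatgctagctCGCATGCGcgcgcacaaac
Ndufaf4, NRF1 core, chr4:24825107-24825136, plus strand: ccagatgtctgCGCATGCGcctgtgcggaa
Ndufa11, NRF1 core, chr17:56857115-56857144, plus strand: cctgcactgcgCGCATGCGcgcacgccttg
Ndufs1, ETS core read from the other strand, chr1:63223395-63223424, minus strand: aggcctcggctACTTCCGGcggaactgcag
Uqcrh, ETS core read from the other strand, chr4:115747668-115747697, minus strand: gagtatgccgcACTTCCGGccaggtcgccg
Ndufs4, YY1 core, chr13:115178253-115178278, minus strand: ttgcctacaggAAGATGGCGgcggtc
The NRF1 core began at -92 bp from the TSS of *Cycs*, at -112 bp from that of *Ndufaf4* and at -59 bp from that of *Ndufa11*. The YY1 core began 35 bases after the TSS of *Ndufs4*. Over the 9 promoters with the NRF1 core the median fold was 2.20, over the 85 without it 1.63, and over all genes with it 1.56. The medians were 2.53 over the 6 members with the ETS core and 2.10 over the 6 with the YY1 core. They were 1.401 both over those with the Sp/KLF box and over those with the TATA letters. Over all genes with these letters the medians were 1.54, 1.56, 1.43 and 1.31 in the same order. All members with the NRF1, ETS or YY1 core had CpG-rich promoters, as defined below. Each median is taken over the promoters that passed the filter given below, and those of the members describe few promoters.

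Across the members, Zfp322a reads exceeded IgG reads at most promoters, but by less than 2-fold at the middle one. A promoter had a median of 20 Zfp322a and 11 IgG reads, against 11 and 8 over all protein-coding genes. After a filter of at least 10 reads over both libraries, 91 members and 15958 genes remained. *Cox7b2*, with 3 and 1 reads, *Cox7b*, with 3 and 4, and *Atp5l-ps1*, with 0 and 3, did not pass. The fold was over 1 at 84 of the 91 members (92.3%), and at 73.9% of all tested genes. Its median was 1.635, with quartiles of 1.22 and 2.23, and the median over all tested genes was 1.401. A fold of at least 2 was reached by 32 of the 91 (35.2%), where 23.6% of all tested genes reached it. The lower bound of the interval was over 1 at 24 members (26.4%), against 16.1% of all tested genes, and no member had an upper bound under 1. In a two-sided exact binomial test on the reads of both libraries, with Benjamini-Hochberg adjustment over all tested genes, 10 members (10.99%) had an adjusted p under 0.05 with more Zfp322a reads and 0 with more IgG reads, where 5.11% of all tested genes were called higher. At an unadjusted p under 0.05 the number of members was 24 (26.4%), against 18.2% of all tested genes. A putative site was found at 49 of the 94 members (52.1%), against 19.4% of all protein-coding genes. Both shares include genes that did not pass the filter, which are few among the members. The height limit is a fixed number of fragments, so the share also depends on how many reads a promoter has. The part of the members' higher read numbers in this contrast was not tested. A peak region deposited by the authors overlapped the window of 9 members (9.57%), against 3.07%. When the libraries were exchanged, 2 members (2.13%) met the site criterion, *Ndufb5* and *Atp5s*, against 0.956% of all genes. If in place of 1 position the highest pile-up of each library anywhere in the window was compared, a setting added after seeing the data, 13 members reached 3-fold, against 5.48% of all genes.

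**Figure D1:**
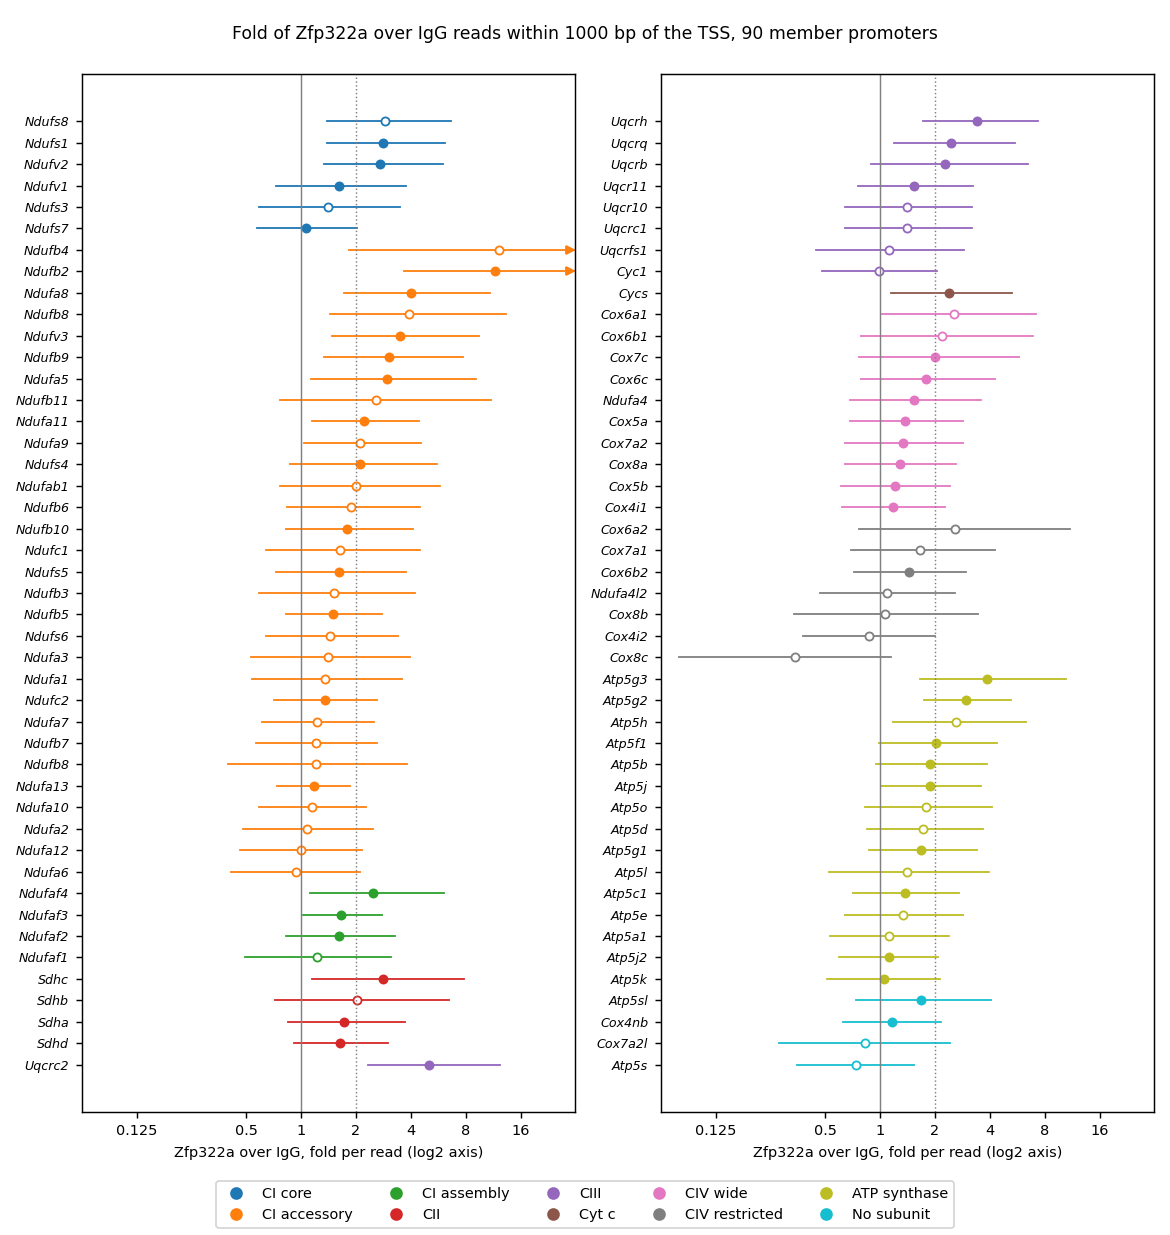
Fold of Zfp322a over IgG reads per promoter on a log2 axis, with the exact 95% interval as a line, for 90 of the 91 members that passed the filter, sorted within each group and coloured by group. Filled points are promoters with a putative site, the solid line marks a fold of 1 and the dotted line a fold of 2. Arrowheads mark the intervals of *Ndufb4* and *Ndufb2*, which reach beyond the axis. Most points lie between 1 and 4.

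**Figure D2:**
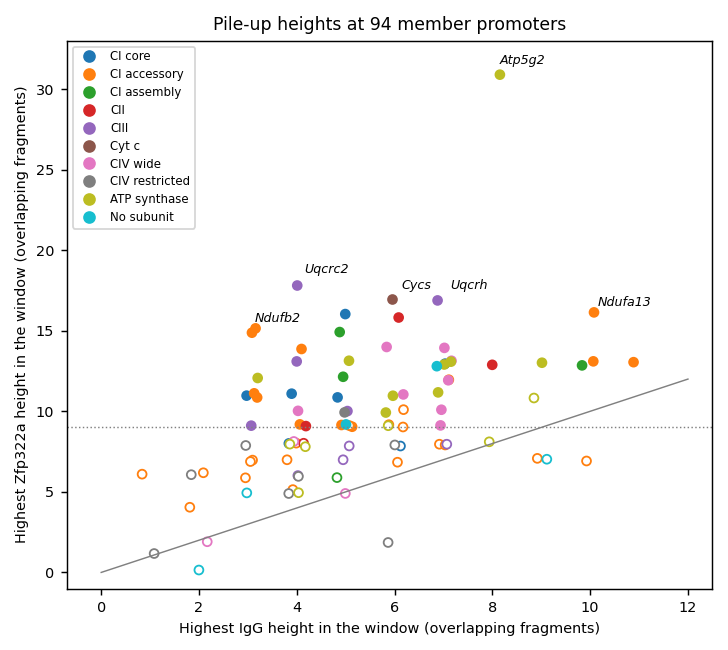
Highest Zfp322a height (y) against the highest IgG height (x) in each of the 94 windows, in overlapping fragments of 300 bp, with small horizontal and vertical shifts so that points do not hide each other. Filled points hold a putative site, which compares the libraries at the same position and not at their separate maxima. The solid line marks equal heights and the dotted line 9 fragments. *Atp5g2*, at 31 against 8, stands above all others.

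Such promoters differ from the average gene in their CpG content. Of the members, 70 (74.5%) had a CpG-rich promoter, taken as an observed over expected CpG ratio of at least 0.6 in the same 300 bp, against 46.3% of all genes. Over all genes with CpG-rich promoters, the median fold was 1.48 and 34.9% held a putative site. The 70 CpG-rich members had a median fold of 1.635 and held a site in 58.6% of cases. The 24 other members held one in 33.3%, against 6.07% of all other genes. The ratio of the libraries also moved with base composition away from TSSs, from 0.601 in windows of 28 to 30% GC to 1.07 in windows of 50 to 52% GC. The last class holds both the members' median window of 51.0% and that of all protein-coding genes, 51.2%, so the members' windows were not richer in GC. Scaled by windows of the same GC content, the median fold was 1.53 for the members and 1.30 for all tested genes. The part of GC content and of promoter openness in the folds was not tested further.

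In the profile around the TSS, both libraries had their most reads near the start of these genes. Over the 94 members the fold was 1.87 (interval 1.63 to 2.14) from -500 to 0 bp and 1.77 (1.57 to 1.99) from 0 to 500 bp. It was 1.22 (1.04 to 1.45) from -3000 to -2000 bp, 1.11 (0.947 to 1.31) from -2000 to -1000 bp, 1.29 (1.10 to 1.52) from 1000 to 2000 bp and 1.13 (0.958 to 1.34) from 2000 to 3000 bp. Over the other protein-coding genes the fold was 1.501 in the 500 bp before and 1.515 in the 500 bp after the TSS.

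**Figure D3:**
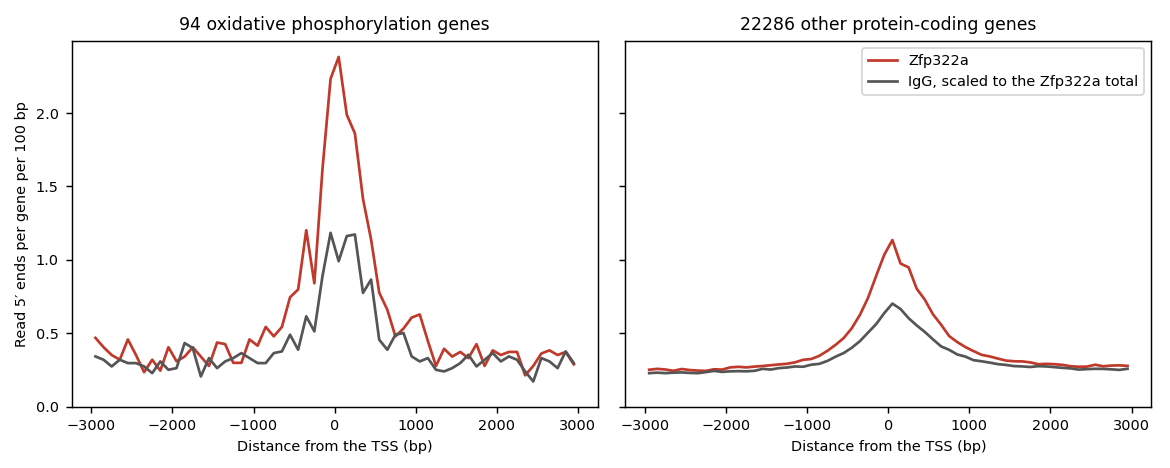
Read 5′ ends per gene and 100 bp (y) against distance from the TSS in bp (x), for the 94 members and for the other protein-coding genes. The red line is the Zfp322a library and the grey line the IgG library scaled to the Zfp322a total. Both libraries peak at the TSS, and the gap between the lines is widest from -500 to 500 bp.

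Complex I takes electrons from NADH through a flavin and a chain of iron-sulfur clusters held by its core subunits. Over the 7 nuclear core genes, 175 Zfp322a and 83 IgG reads gave a fold of 1.97 (interval 1.51 to 2.59). *Ndufs1*, the largest core subunit, had 33 Zfp322a and 11 IgG reads and a fold of 2.80 (1.38 to 6.15, adjusted p = 0.0444 in the exact test). Its site, of height 11 against 3, lies at -186 bp from its TSS, in the 5′ UTR of *Eef1b2*, a translation elongation factor gene whose TSS is 3 bp away on the other strand. The reads therefore cannot be told apart between these genes. *Ndufs8*, which holds iron-sulfur clusters, had 31 and 10 reads and a fold of 2.90 (1.38 to 6.62, adjusted p = 0.0497 in the exact test). Its highest pile-up was 8 fragments, so it held no putative site, and its call lay at the threshold.

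The NADH-oxidising arm of complex I is built from *Ndufv1*, *Ndufv2* and *Ndufs1*. *Ndufv2* had 32 and 11 reads, a fold of 2.72 (1.33 to 5.98), and a site of height 16 against 3 in its coding exon, 113 bp after the TSS; its adjusted p was 0.0586 in the exact test. *Ndufv1*, which binds the flavin, had 19 and 11 reads, a fold of 1.61, and a site of 11 against 2 fragments 31 bp after the TSS. *Ndufs7* had nearly as many IgG as Zfp322a reads, 21 and 24, and a fold of 1.07. It still held a position with 13 against 4 fragments, 388 bp after the TSS used and 24 bp from another annotated start of the gene. At *Ndufs3* the reads were 15 and 10, and no position met the criterion. Of the 7 core genes, 5 held a site, and their folds ran from 1.07 to 2.90 with overlapping intervals.

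The accessory subunits surround the core and are needed for its assembly and stability. Their 30 records held 623 Zfp322a and 329 IgG reads, a fold of 1.77 (1.54 to 2.03), and 12 held a putative site. *Ndufb2* had 37 Zfp322a and 3 IgG reads, a fold of 11.5 (3.65 to 58.4, adjusted p = 2.42e-05 in the exact test), the lowest adjusted p of all members. Its site, of height 15 against 1, lies at -10 bp from the TSS, at position 39542563 of chromosome 6, within a deposited region that runs from 39541815 to 39542901. The Zfp322a pile-up there extended over both sides of the TSS, while the IgG library reached 3 fragments at most in the window. *Ndufa8* had 30 and 7 reads, a fold of 4.004 (1.72 to 10.8, adjusted p = 0.0146 in the exact test), and a site of 15 against 1 in its coding exon, 203 bp after the TSS. *Morn5* starts 52 bp away on the other strand. *Ndufv3* had 26 and 7 reads, a fold of 3.47 (1.47 to 9.47, adjusted p = 0.0489 in the exact test), and a site of 11 against 1 in its 5′ UTR, 7 bp after the TSS. Its head-to-head neighbour is *Wdr4*.

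*Ndufb4* had the highest fold, 12.1, from 13 Zfp322a reads and 1 IgG read (1.82 to 516, adjusted p = 0.0423 in the exact test). This fold rests on 1 IgG read, the highest pile-up was 6 fragments, and 22.2% of all reads in the window had a mapping quality under 25. The first record of *Ndufb8* had 21 and 5 reads, a fold of 3.92 (1.44 to 13.3), and no site, and the second record, with its TSS at 44627321 of chromosome 19, had 9 and 7. *Ndufb9* had 26 and 8 reads, a fold of 3.04 (1.33 to 7.76), and a site of 14 against 3 at 21 bp after the TSS, within a deposited region. *Ndufa5* had 19 and 6 reads and a fold of 2.96 (1.14 to 9.05), with a site of 11 against 2. *Ndufa11* had 33 and 14 reads and a fold of 2.20 (1.15 to 4.45). Its site lies at -433 bp from its TSS in an intron of *Vmac*, with 9 against 2 fragments. Of these, *Ndufb4* was called and *Ndufb8*, *Ndufb9*, *Ndufa5* and *Ndufa11* were not.

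Other accessory genes with a site had lower folds over the whole window, from 1.17 to 2.10. *Ndufa13*, a subunit also known as GRIM-19, had the most IgG reads of all members, 36, beside 45 Zfp322a reads, a fold of 1.17 (0.737 to 1.86). Its site of 16 against 4 fragments lies at -326 bp from the TSS, in a coding exon of *Tssk6*. *Ndufb5* had 32 and 20 reads, a fold of 1.49 (0.829 to 2.76) and a position of 13 against 2 fragments, but it also met the criterion with the libraries exchanged. *Ndufs4* had 18 and 8 reads with 9 against 1 fragments at its site, *Ndufb10* had 21 and 11 reads with 12 against 2, *Ndufs5* had 19 and 11 reads with 9 against 2, and *Ndufc2* had 26 and 18 reads with 12 against 4. At the low end, *Ndufa6* had 14 reads in each library and a fold of 0.934, and *Ndufa12* had 16 and 15 reads and a fold of 0.996. *Ndufa1*, *Ndufa2*, *Ndufa3*, *Ndufa7*, *Ndufa9*, *Ndufa10*, *Ndufab1*, *Ndufb3*, *Ndufb6*, *Ndufb7*, *Ndufb11*, *Ndufc1* and *Ndufs6* held no site either, with folds from 1.08 to 2.57. Of the 4 assembly factors that share the name, which help to build complex I and do not stay in it, *Ndufaf4* had 24 and 9 reads, a fold of 2.49 (1.12 to 6.09), and a site of 15 against 2, 94 bp after the TSS. *Ndufaf3* had 48 and 27 reads and a fold of 1.66 (1.02 to 2.77), with a site nearest to another gene's TSS. *Ndufaf2* had 26 and 15 reads with a site of 10 against 3 between its own start and that of *Ercc8*, and *Ndufaf1* had 13 and 10 reads and no site.

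**Figure D4:**
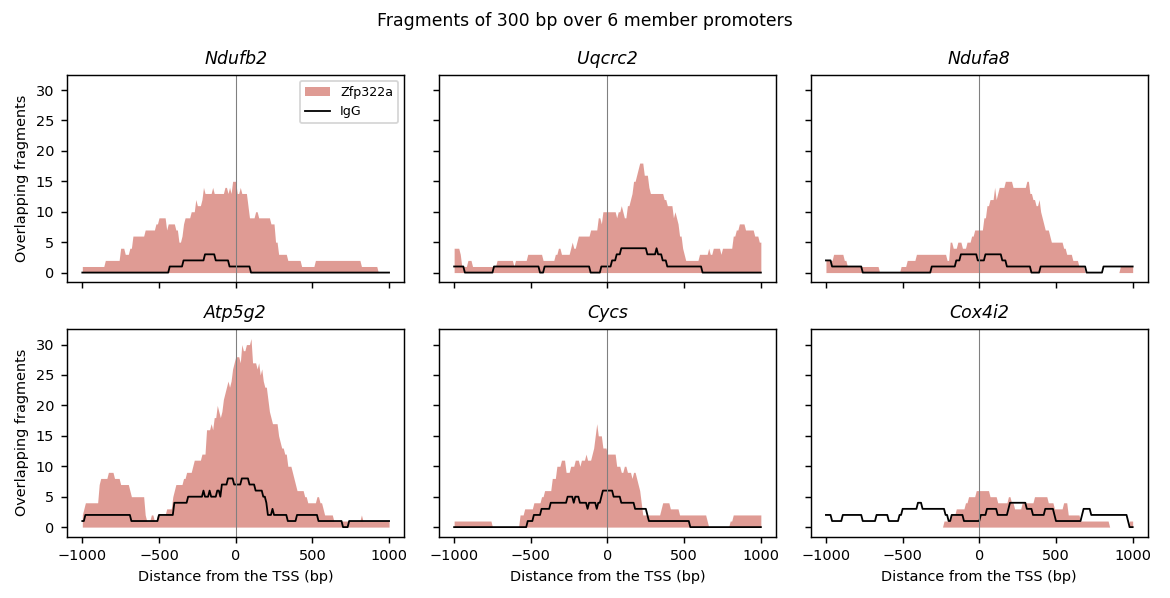
Overlapping fragments of 300 bp (y) against distance from the TSS in bp (x) at 6 member promoters, with the Zfp322a library as the red area and the IgG library as the black line, neither scaled. *Ndufb2*, *Uqcrc2*, *Ndufa8*, *Atp5g2* and *Cycs* rise to 15 fragments or more, and *Cox4i2*, a tissue-restricted isoform, reaches 6.

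Complex II feeds electrons from the citric acid cycle into the chain and is the complex with no mitochondrially encoded subunit. Its 4 genes held 93 Zfp322a and 46 IgG reads, a fold of 1.89 (1.31 to 2.75), and 3 held a site. *Sdha*, the flavoprotein, had 24 and 13 reads, a fold of 1.73 (0.844 to 3.69), and a site of 11 against 3. *Sdhb*, the iron-sulfur subunit, had 13 and 6 reads and a fold of 2.02 (0.718 to 6.49), and its highest pile-up of 8 fragments left it without a site. Both membrane anchors had a site. *Sdhc* had 21 and 7 reads, a fold of 2.80 (1.15 to 7.80), and 9 against 2 fragments 278 bp after the TSS. *Sdhd* had 35 and 20 reads, a fold of 1.635 (0.918 to 2.99), and 16 against 3 fragments in its coding exon, 97 bp after the TSS. No complex II gene was called by adjusted p, and their intervals overlap.

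Complex III held some of the strongest promoters and some of the weakest. Its 9 genes had 218 Zfp322a and 102 IgG reads, a fold of 1.997 (1.57 to 2.55), and 5 held a site. *Uqcrc2*, a core protein, had 43 and 8 reads and a fold of 5.02 (2.33 to 12.4, adjusted p = 3.27e-04 in the exact test). Its site, of height 18 against 4, lies in its intron 220 bp after the TSS, inside a deposited region from 127778652 to 127779641 on chromosome 7. *Uqcrh*, the hinge protein, had 40 and 11 reads and a fold of 3.40 (1.71 to 7.34, adjusted p = 0.00678 in the exact test). Its site of 17 against 2 fragments lies at -838 bp from its TSS in an intron of *Lrrc41* and is nearer to a start of that gene, and with the window narrowed to -500 to +500 bp the fold of *Uqcrh* was 1.49. *Uqcrq* had 29 and 11 reads, a fold of 2.46 (1.19 to 5.46), and a site of 13 against 1 in its coding exon, within a deposited region. *Uqcrb* had 17 and 7 reads with 9 against 3 fragments, and *Uqcr11* had 23 and 14 reads with 10 against 1. *Uqcr10* had 18 and 12 reads and no site.

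The catalytic subunits of complex III, other than the mitochondrially encoded cytochrome b, had no site. *Cyc1*, cytochrome c1, had 18 Zfp322a and 17 IgG reads and a fold of 0.989 (0.481 to 2.04). *Uqcrfs1*, the Rieske iron-sulfur protein, had 12 and 10 reads and a fold of 1.12 (0.444 to 2.90). *Uqcrc1*, the other core protein, had 18 and 12 reads and a fold of 1.401 (0.639 to 3.19), while its partner *Uqcrc2* stood at 5.02; these intervals overlap from 2.33 to 3.19. *Cycs*, the mobile cytochrome c that carries electrons from complex III to complex IV, had 28 and 11 reads and a fold of 2.38 (1.15 to 5.29, adjusted p = 0.143 in the exact test). Its site, of height 17 against 3, lies at -70 bp from the TSS, between it and the start of the long non-coding RNA gene 5430402O13Rik, 105 bp away. The NRF1 core shown above begins at -92 bp from the same TSS.

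Complex IV, cytochrome c oxidase, is the complex with tissue-restricted isoforms: several nuclear subunits exist in a widely expressed form and in a form of muscle, lung, testis or another tissue. The 11 widely expressed genes had 198 Zfp322a and 126 IgG reads, a fold of 1.47 (1.17 to 1.85), and 8 held a site. The 8 tissue-restricted genes had 92 and 73 reads, a fold of 1.18 (0.857 to 1.62), and 1 of them, *Cox6b2*, held a site. The intervals overlap, and the difference was not tested. The restricted isoforms had a median observed over expected CpG ratio of 0.382 and the widely expressed genes one of 0.833, so the isoform and the CpG content of the promoter cannot be told apart.

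Within pairs, *Cox4i1* had 24 and 19 reads and a fold of 1.18 (0.620 to 2.28), against 13 and 14 reads and 0.867 (0.375 to 1.99) at *Cox4i2*. *Cox6a1* had 19 and 7 reads and a fold of 2.54 (1.02 to 7.14), and *Cox6a2*, the heart and skeletal muscle form, had 11 and 4 reads and 2.57 (0.761 to 11.1). *Cox6b1* had 14 and 6 reads and a fold of 2.18 (0.787 to 6.92), and *Cox6b2*, the testis form, had 23 and 15 reads and 1.43 (0.716 to 2.95). Within each of these pairs the intervals overlap. *Cox7a2* had 20 and 14 reads and a fold of 1.33 (0.641 to 2.86), against 16 and 9 reads and 1.66 (0.691 to 4.26) at *Cox7a1*. *Cox8a* had 22 and 16 reads and a fold of 1.28 (0.644 to 2.62), against 8 and 7 reads and 1.07 (0.338 to 3.46) at *Cox8b*. *Cox8c* had 4 Zfp322a and 11 IgG reads, a fold of 0.340 (0.0789 to 1.15), the lowest of the tested members. *Ndufa4*, which belongs to complex IV despite its name, had 18 and 11 reads and a fold of 1.53 (0.684 to 3.58), against 14 and 12 reads and 1.09 (0.468 to 2.58) at *Ndufa4l2*. Here too the intervals of each pair overlap.

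Sites at complex IV genes reached 9 to 14 fragments, where the median of the 49 sites was 12. *Cox6c* reached 14 against 3 fragments, *Cox4i1* 13 against 2, *Cox7a2* 12 against 4 and *Ndufa4* 11 against 3. *Cox7c* reached 10 against 0 fragments 512 bp after its TSS, *Cox8a* 10 against 3, and *Cox5a* and *Cox5b* 9 against 3, the least the criterion allows. The site of *Cox7c* lies in its 5′ UTR, 45 bp from another annotated start of the gene. *Cox7c* and *Cox5b* lie in deposited regions. The site of *Cox4i1* is at -220 bp from its TSS, at position 123191970 of chromosome 8. It is the same position as the site of *Cox4nb*, which starts 178 bp away on the other strand, so these members count the same reads. No complex IV gene was called by adjusted p.

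The ATP synthase couples the return of protons to the making of ATP, through a ring of c subunits in the membrane that turns a catalytic head. Its 15 genes had 393 Zfp322a and 209 IgG reads, a fold of 1.76 (1.48 to 2.09), all 15 had a fold over 1, and 9 held a site. *Atp5g1*, *Atp5g2* and *Atp5g3* encode the same mature c subunit. *Atp5g2* had 60 and 19 reads, the most Zfp322a reads of all members, and a fold of 2.95 (1.74 to 5.23, adjusted p = 0.00156 in the exact test). Its pile-up of 31 fragments against 8 was the highest among the members and lies in its intron, 85 bp after the TSS at position 102501393 of chromosome 15. No deposited region overlapped it. *Atp5g3* had 29 and 7 reads, a fold of 3.87 (1.66 to 10.5, adjusted p = 0.0202 in the exact test), and a site of 12 against 2 in its intron, 542 bp after the TSS, within a deposited region. *Atp5g1* had 27 and 15 reads and a fold of 1.68 (0.863 to 3.40), with a site of 13 against 4 before its TSS. The 3 intervals overlap, so the order of these genes is not resolved.

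The catalytic head is built from the products of *Atp5a1*, *Atp5b*, *Atp5c1*, *Atp5d* and *Atp5e*. *Atp5b*, the catalytic beta subunit, had 28 and 14 reads, a fold of 1.87 (0.951 to 3.84), and a site of 11 against 3 in its 5′ UTR. *Atp5a1*, the alpha subunit, had 18 and 15 reads and a fold of 1.12 (0.534 to 2.39) with 8 against 7 fragments. *Atp5c1* had 25 and 17 reads, and its site of 9 against 2 lies in a coding exon of *Kin*, whose TSS is 83 bp away on the other strand. *Atp5d* and *Atp5e* had no site. Among the stalk and membrane subunits other than the c subunits, *Atp5h* had the highest fold, 2.60 (1.17 to 6.32), from 25 and 9 reads, with no site. *Atp5o*, with 21 and 11 reads, and *Atp5l*, with 12 and 8, had none either. *Atp5f1*, with 26 and 12 reads, had a site 852 bp after the TSS used and 1 bp from another annotated start of the gene. *Atp5j2* and *Atp5k* had about as many IgG as Zfp322a reads, 25 and 21 and 19 and 17, and still met the criterion, with 13 against 4 and 10 against 3 fragments. *Atp5j* had 34 and 17 reads and a site of 13 against 4, and this site lies in the 5′ UTR of *Gabpa*, which encodes the alpha subunit of GABP.

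The members by name only had 67 Zfp322a and 62 IgG reads, a fold of 1.01 (0.704 to 1.45). *Atp5s* had 15 and 19 reads and a fold of 0.738 (0.349 to 1.53), and *Cox7a2l* 8 and 9 reads and a fold of 0.830 (0.279 to 2.42). *Atp5sl* had 18 and 10 reads and a low site of 9 against 3. Of the 94 members, 3 lie on the X chromosome. The whole chromosome had a fold of 1.32 (1.31 to 1.33), where the 19 autosomes ran from 0.760 to 1.147, and the other X-linked genes had a median of 2.06. *Ndufb11* had 11 and 4 reads and a fold of 2.57, *Ndufa1* 13 and 9 reads and a fold of 1.35, and *Cox7b* 3 and 4 reads. None of the 3 held a site, and the intervals of *Ndufb11* (0.761 to 11.1) and *Ndufa1* (0.534 to 3.58) span the value of the whole chromosome.

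The 49 sites had a median height of 12 fragments, with 15 sites at 9 or 10 and 10 at 15 or more. They lay a median of 85 bp after the TSS, 32 after it and 17 before it, and 39 lay within 300 bp. By annotation, 17 were in a 5′ UTR, 8 in a coding exon, 14 in an intron and 10 outside coding transcripts. At 9 sites, the nearest TSS belonged to another gene: *Kin* at *Atp5c1*, *Cox4nb* at *Cox4i1*, 5430402O13Rik at *Cycs*, *Vmac* at *Ndufa11*, *Ercc8* at *Ndufaf2*, CT010508.1 at *Ndufaf3*, *Eef1b2* at *Ndufs1*, Gm10767 at *Uqcrb* and *Lrrc41* at *Uqcrh*. A head-to-head neighbour within 1000 bp was present at 28 members (29.8%) and at 12.1% of all genes. Of these 28 members 67.9% held a site, against 44.1% of all genes with such a neighbour. Of the 66 members without one 45.5% held a site, against 16.02% of all genes without one. A window that spans a pair of starts collects reads of both, and its part in this share was not tested.

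Other gene groups of the cell's basic machinery were set beside the oxidative phosphorylation genes. A site was found at 42.9% of the 77 mitochondrial ribosomal protein genes, 54.2% of the 83 cytosolic ribosomal protein genes and 21 of the 42 proteasome subunit genes. The median folds were 1.54, 1.73 and 1.77 in the same order, against 1.635 for the oxidative phosphorylation genes. The share with a fold of at least 2 was 26.3%, 37.8% and 46.3%, against 35.2%. The groups differed more in the share of tested genes called higher by adjusted p, 1.32%, 8.54% and 21.95%, against 10.99%. A deposited region overlapped 2.60%, 15.7% and 11.9% of the windows, against 9.57%. The values of the oxidative phosphorylation genes lie within the range of these groups for each of these measures, and no difference between the groups was tested.

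**Figure D5:**
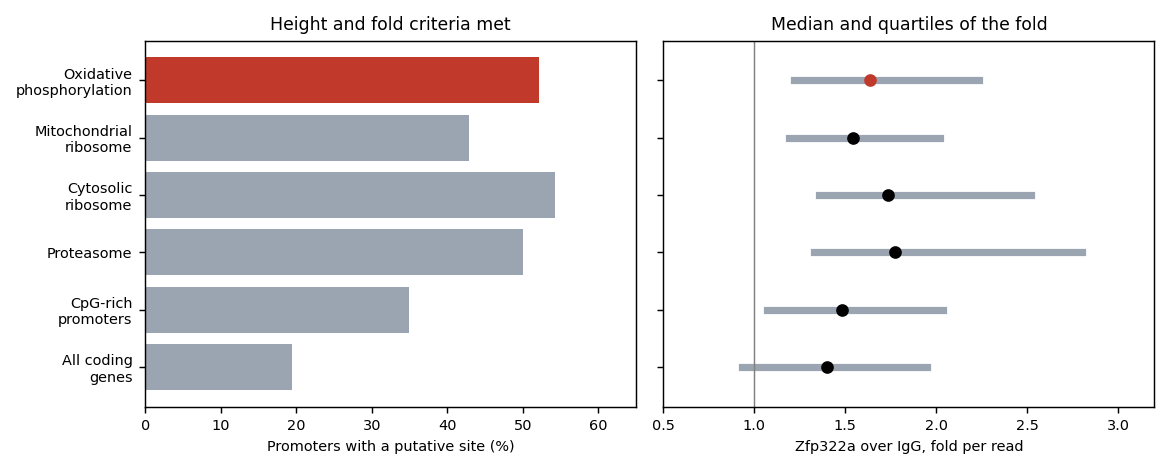
Left, the percentage of promoters with a putative site in the oxidative phosphorylation genes (red), in 3 other gene groups, in all genes with CpG-rich promoters and in all protein-coding genes. Right, the median fold of Zfp322a over IgG reads (points) with its quartiles (bars) over the genes that passed the filter. The oxidative phosphorylation genes lie among the ribosomal and proteasome genes and above the average gene.

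Genes that build or regulate these complexes were taken from lists of assembly factors and of regulators of mitochondrial biogenesis. Of 29 assembly factors and related genes found in the annotation, 16 (55.2%) held a site, against 19.4% of all genes, and the median fold was 1.65. A CpG-rich promoter was present at 26 of the 29, and 34.9% of all genes with such promoters held a site. By adjusted p, 3 (10.3%) were called, all with more Zfp322a reads, against 5.11% of all tested genes. *Sdhaf2*, which helps to attach flavin to complex II, had 58 and 12 reads, a fold of 4.51 (2.40 to 9.24, adjusted p = 3.23e-05 in the exact test), and a pile-up of 33 against 2, higher than at any member. This site is nearer to the start of *Cpsf7*, whose TSS is 35 bp from that of *Sdhaf2* on the other strand, so the reads cannot be told apart between these genes. *Atpaf2*, an assembly factor of the ATP synthase, had 50 and 13 reads and a fold of 3.59 (1.92 to 7.21, adjusted p = 0.00103 in the exact test). *Atpif1*, the inhibitor of the ATP synthase, had 29 and 8 reads and a fold of 3.39 (1.51 to 8.57, adjusted p = 0.0347 in the exact test). The other genes with a site were *Cox18*, *Lyrm7*, *Foxred1*, *Tmem186*, *Usmg5*, *Acad9*, *Bcs1l*, *Sdhaf1*, *Cox19*, *Ecsit*, *Tmem126b*, *Cox10* and *Cyct*, with folds from 1.05 to 2.70. *Lrpprc*, named here after its values were seen, held none. It had the lowest fold of the list, 0.692 (0.368 to 1.28), from 20 and 27 reads.

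Of 19 regulators, 7 (36.8%) held a site, against 19.4% of all genes, and the median fold over the 17 that passed the filter was 1.45. A CpG-rich promoter was present at 17 of the 19. Over all genes with CpG-rich promoters 34.9% held a site and the median fold was 1.48, near the values of the regulators. *Nrf1* itself, which encodes the factor that binds the NRF1 core, had 62 Zfp322a and 9 IgG reads, a fold of 6.44 (3.18 to 14.7, adjusted p = 2.91e-07 in the exact test), and 36 against 3 fragments, and it was the 1 regulator called by adjusted p (5.88% of the 17 tested, against 5.11% of all tested genes). *Sp1*, *Gabpb2*, *Gabpb1*, *Gabpa*, *Tfam* and *Polg* also held sites. *Gabpb2* had 38 and 16 reads, *Gabpb1* 32 and 14, and *Gabpa* 33 and 16, with folds of 2.22, 2.14 and 1.93, and the site of *Gabpa* is the one counted at *Atp5j*. *Tfam*, the factor that packs and transcribes mitochondrial DNA, had 30 and 16 reads, a fold of 1.75 (0.925 to 3.44), and 17 against 4 fragments, in a deposited region. *Yy1* had 14 and 15 reads, *Ppargc1a* 1 and 3, and *Ppargc1b* 9 and 14, and none of them, named here after their values were seen, held a site.

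Depth limits what a single promoter can show. At 11 IgG reads, the members' median, 33 Zfp322a reads or a fold of 2.80 were needed for an adjusted p under 0.05. At a member with 11 or fewer IgG reads, a smaller fold was not detectable at this depth.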

How the data were processed

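The authors sequenced both libraries on the Genome Analyzer and deposited the mapped reads (mm9), each with a mapping quality score, and the reads of their numbered peak regions. The submitters' processing notes name CASAVA 1.4, BWA and Partek 6.6. The score was used only as a filter (at least 25, which kept 80.0% of 5187475 Zfp322a reads and 80.1% of 4843481 IgG reads), and the peak regions only by position. Fragments were given 300 bp, the average of the study's methods, although the labels state library fragments near 250 bp with adapters; 200 bp was an alternative. In neither library did reads share both position and strand (0 such reads).

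Reads were counted around 1 TSS per gene, where most protein-coding transcripts start within 100 bp, with Python 3.11.15, numpy 2.4.6, scipy 1.17.1 and matplotlib 3.10.9. Counts were compared in a two-sided exact binomial test, conditional on their sum, with Benjamini-Hochberg adjustment over all 15958 genes with at least 10 reads. With 1 library for each antibody, intervals cover counting error only and not differences between preparations. In simulated libraries of 15958 genes, 10 of 100 genes planted at 2-fold and 80 of 100 at 4-fold were called, and 3 of 15758 unchanged genes. Counts there were drawn from a Poisson distribution, with each unchanged gene at a fold of exactly 1. The measured libraries had a median fold of 1.401 and a ratio that moved with GC content. The simulated shares called therefore do not carry over to them.

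Values were given for members with a site, for the 8 highest and lowest folds, deposited regions, isoform pairs, X-linked genes, succinate dehydrogenase and cytochrome c. The members and lists were chosen with earlier results of these data known. Alternatives were other scalings, windows, TSSs, read filters, read positions, heights and fragment sizes. Of the listed pathway symbols, 9 had no match in the annotation and were not analysed here. The values of 1 member and a promoter sequence are not reported here.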

Additional observations from a re-analysis of the deposited data

Results flagged for a closer look

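Reads outside the counts of the report were also more frequent in the Zfp322a library. On the mitochondrial genome, which encodes the remaining subunits of the complexes, all deposited reads numbered 4770 in the Zfp322a and 3705 in the IgG library, a fold per read of 1.202 (exact 95% interval 1.15 to 1.26). With a mapping quality of at least 25 they numbered 2827 and 2203, a fold of 1.199 (1.13 to 1.27). In the windows of the members, reads with a mapping quality under 25, which the counts leave out, numbered 64 and 36, a fold of 1.657 (1.08 to 2.57) relative to all such reads. At 52 members there was no such read, and at 9 they made up over 10% of the reads in the window. These values stood above the IgG control library, and no cause was tested.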

How the results depend on the processing

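With 1 library for each antibody no replicate could be left out. No paired analysis was possible because each group holds 1 library. Of 94 members, 49 met the site criterion. With 200-bp fragments, other windows, thresholds, scalings or read sets the number ran from 33 to 51. Over all protein-coding genes the share was 19.4% and ran from 10.8% to 21.3% under the same alternatives. Comparing the highest pile-ups anywhere in the window, chosen after seeing the data, left 13, against 5.48% of all genes. Members with a fold of at least 2 numbered 27 to 37 under the alternatives, against 32. Over all tested genes this share ran from 19.8% to 32.8%, against 23.6%. The 10 members with an adjusted p under 0.05 became 6 with GC-matched scaling and 6 with 5′ ends shifted by 150 bp. They became 6 with no filter on low counts, 5 with the window from -1000 to +100 bp and 15 with scaling by 10 kb bins. Over all tested genes the called share of 5.11% became 3.24%, 4.70%, 3.12%, 2.185% and 9.7% in the same order. The median fold of 1.635 became 1.84 with scaling by 10 kb bins, 1.87 from -500 to +500 bp and 1.87 from -1000 to +100 bp. Scaling by 10 kb bins moved the median of all genes by 0.17 on the log2 scale and GC matching by -0.11. Leaving out the 5 members that are no subunit, the second *Ndufb8* record and the X-linked members, also chosen after seeing the data, gave a median of 1.65, 10 called members and 47 sites. Of 726 folds of single members under the alternatives, 711 were counted as within the interval of the reported fold and 11 as outside it. The remaining 4, from at least 2 to under 1, were counted apart, whether or not they left the interval. All departures came from the windows from -500 to +500 bp and from -1000 to +100 bp. The alternatives reuse the same reads and the intervals are wide, so this count does not measure the error of the folds. The window from -1000 to +100 bp is the range that the study's map of binding sites calls the TSS, and it leaves out reads farther downstream. In it, 34 members met the site criterion, against 14.9% of all genes. The fold fell there from over 1 to under 1 at 12 members. Of these, 4 had a reported fold of at least 2: *Cox6a2* (0.934), *Cox7c* (0.234), *Ndufa5* (0.934) and *Sdhb* (0.934). The sites of *Cox7c* and *Ndufa5*, 512 and 438 bp after the TSS used, lie outside this window. They are 45 and 5 bp from another annotated start of the same gene. *Atp5g2* and *Ndufb2* were called under each of 10 alternatives, *Ndufa8*, *Uqcrc2* and *Uqcrh* under 9, *Atp5g3* under 8, *Ndufs1* under 5, and *Ndufs8* and *Ndufv3* under 4. *Ndufb4* was called under 5 of 9, and had no IgG read in the narrower windows, which gave no fold. The shift of read ends was not run for the site criterion, which uses whole fragments. At these depths a site of 9 fragments rests on 9 reads.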
